A study of Mus musculus with 2 samples.

Results

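Mesothelial nuclei come from the thin cell layer that covers the fat depot, and they made up 516 of the 16477 barcodes kept from both libraries. The HF-PBS library held 146 of them among 8618 kept barcodes and the HF-HHT library 370 among 7859. They were selected on measured values. A barcode was kept with at least 500 UMIs (unique molecular identifiers, each counting 1 captured RNA molecule), more than 400 genes and less than 0.5% mitochondrial UMIs. It was called mesothelial where 8 marker genes, Msln, Upk3b, Wt1, Muc16, Gpm6a, Bnc1, Upk1b and Lrrn4, together held at least 0.15% of its UMIs and at least 4 UMIs, and where the exclusion genes Adgrg2, Pax8 and Pkhd1 together stayed under 0.15%.

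The mesothelium lines the peritoneal cavity and covers the organs within it, visceral fat included. Its cells carry keratins and apical microvilli like an epithelium, yet they arise from mesoderm, keep the transcription factor Wt1 and can take on mesenchymal features under transforming growth factor beta. They secrete hyaluronan and glycoproteins that let organs slide, and they sense and answer inflammation in the cavity.

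The study asked what homoharringtonine (HHT), a plant alkaloid that blocks translation elongation, does to senescent cells and to the cell populations of white adipose tissue (WAT) in obesity. Male C57BL/6N mice, 8 weeks old at the start, received a high-fat diet for 6 weeks and then for 8 more weeks together with injections into the peritoneal cavity 3 times a week. HF-PBS mice received PBS and HF-HHT mice received HHT at 0.545 mg/kg. By the study's methods epididymal WAT of 3 mice was pooled per group, whereas the sample labels speak of a single mouse, so that what a library stands for is uncertain. The DAPI-stained nuclei of the frozen tissue were sorted and sequenced as 1 library per group (single nucleus RNA sequencing, snRNA-seq). The diet, the route of injection, the sex and the strain were shared by both groups, and there was no lean group.

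With 1 library per condition, no difference between HF-PBS and HF-HHT has a replicate check. Values are therefore given as UMIs summed over the mesothelial nuclei of a library and as CPM (the UMIs of a gene scaled to a common total, so that sums of unlike depth can be compared), and the log2 ratio of CPM, HF-HHT over HF-PBS, is followed by its exact 95% interval, which covers counting error only. "At least 2-fold" is a limit of size and not a test. In total 76197757 UMIs were counted for HF-PBS against 73313558 for HF-HHT, with medians of 4073 and 4007 UMIs per kept barcode, and they shared 20 barcode sequences. RNA from outside nuclei (free RNA) was read from barcodes of depth rank 45000 to 90000. From the markers of other cell types that mesothelial nuclei carried least, it was estimated to make up 9.30% of the mesothelial UMIs for HF-PBS against 14.2% for HF-HHT. The HF-HHT library also contained 873 barcodes with markers of a duct-like epithelium, against 17 in HF-PBS.

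The share of mesothelial nuclei was larger in the HF-HHT library. It was 1.69% (1.43 to 1.99, exact binomial interval) of the HF-PBS barcodes and 4.71% (4.25 to 5.20) of those of HF-HHT, which gives 1.47 (1.19 to 1.76) as log2 ratio. The intervals did not overlap under any of the 9 settings in the plot of shares. Since a share depends on all other nuclei recovered, and since that of macrophages was 51.2% in HF-PBS against 25.1% in HF-HHT, a larger number of mesothelial nuclei and a smaller number of other nuclei cannot be told apart. With the duct-like and motile cilia barcodes left out of the denominator, the shares were 1.70% and 5.44%.

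**Figure D1:**
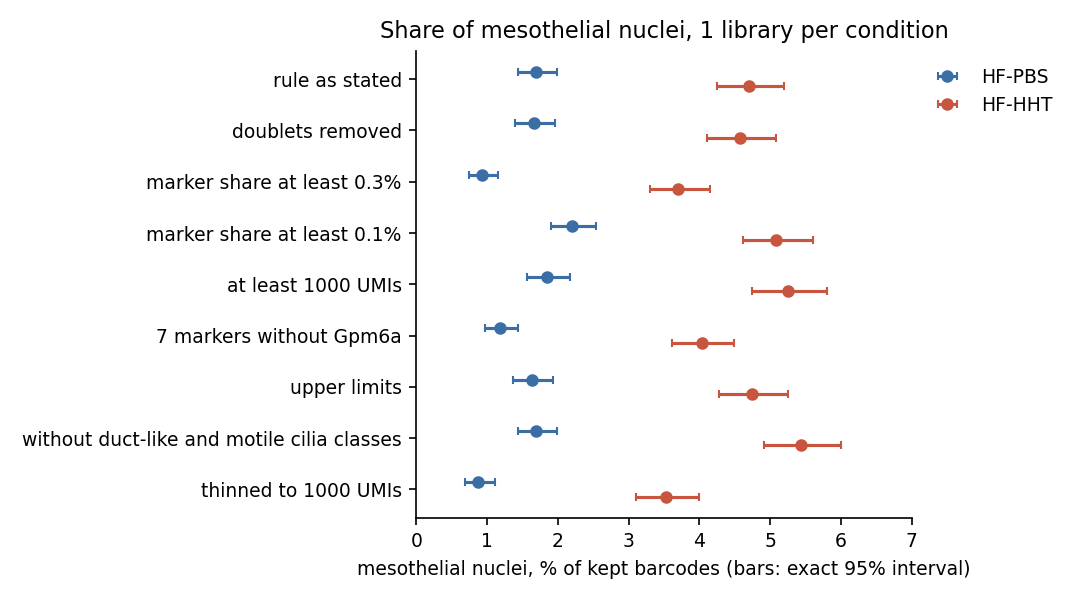
Share of mesothelial nuclei (x axis, % of kept barcodes) in HF-PBS (blue) and HF-HHT (red) under the stated rule and 8 other settings (y axis), with exact 95% binomial intervals as bars. The HF-PBS values lie between 0.877% and 2.20% and the HF-HHT values between 3.53% and 5.44%, and no pair of intervals overlaps.

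The summed share of the 8 markers had a median of 0.315% per HF-PBS nucleus, with a highest value of 1.02%, against a median of 0.494% per HF-HHT nucleus, with a highest value of 1.64%. The HF-HHT nuclei thus lay farther above the limit. Just inside the limit, between 0.15% and 0.18%, were 19 and 18 nuclei, and just outside it, between 0.12% and 0.15%, were 24 and 19 barcodes. Mesothelial nuclei had a median depth of 7191.5 UMIs (HF-PBS) against 5458 UMIs (HF-HHT).

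Most nuclei matched the mesothelial label, but a part did not. Without Gpm6a, a membrane glycoprotein gene that other cells also use, 102 of the 146 HF-PBS nuclei and 317 of the 370 HF-HHT nuclei still met the rule. Lymphatic endothelial markers stood at 0.15% of UMIs or more in 9 HF-PBS and 18 HF-HHT nuclei, and all of these met the rule only through Gpm6a. Prox1, the master regulator of lymphatic identity, was at 70.0 and 27.2 CPM in all mesothelial nuclei and at 1.08 and 0.44 CPM in those that passed without Gpm6a. Blood endothelial markers reached that level in 9 and 15 nuclei, B cell markers in 9 and 24, macrophage markers in 8 and 11, duct-like epithelial markers in 5 and 26, and erythroid markers in 0 and 26. Stromal precursor markers did so in 87 and 237 nuclei, a majority, and the most abundant of them, Dcn, was at 1457 and 1514 CPM. Adipocyte markers did so in 0 and 7 nuclei, where 0 of 146 allows a share of up to 2.05%. In the nuclei passing with 7 markers, 8706 genes had at least 40 UMIs over both sums. Of these, 692 were at least 2-fold higher in HF-HHT and 394 lower. In all mesothelial nuclei 745 (7.89%) and 377 (3.99%) of 9442 genes were. A doublet score marked 13 of the 146 nuclei and 33 of the 370.

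The rule markers themselves are given as a description, since they chose the nuclei. Gpm6a was the most abundant, with 1399 CPM against 1913 CPM for HF-HHT. Wt1, needed for mesothelial identity, followed at 870 and 802 CPM. Muc16, the membrane mucin known as CA125, was at 433 and 1082 CPM. Mesothelin, encoded by Msln on chromosome 17 (25748613 to 25754378, GRCm38), which binds that mucin, was at 160 and 181 CPM. Among HF-PBS nuclei 47.3% had a UMI of Muc16, against 83.5% for HF-HHT. The uroplakin genes Upk3b (203 and 432 CPM) and Upk1b (316 and 535 CPM), whose products form plaques in the bladder lining, were also more abundant in HF-HHT, whereas Bnc1, a zinc finger gene of keratinocytes and mesothelium, was at 164 and 179 CPM. At a depth of 1000 UMIs for every nucleus, the share with a Muc16 UMI was 24.8% and 54.3%, against 0.047% and 0.16% of macrophage barcodes, which should lack it. Of the exclusion genes, Adgrg2 was present at 227 and 224 CPM, so that it is not foreign to these nuclei.

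Beyond the markers of the rule, 496 of 7638 genes with enough UMIs (6.49%) were at least 4-fold higher in mesothelial nuclei than in all other kept barcodes of both libraries. Of a list of 28 further mesothelial genes, 27 were measured and 24 of these met that limit. This contrast is the one the rule used, so nothing is read from the counts. Among the keratins, Krt19 stood at 112 and 116 CPM, Krt8 at 109 and 90.9 CPM and Krt18 at 53.3 and 47.2 CPM, all 3 being partners in simple epithelia. Aldh1a1, which makes retinoic acid, was at 1492 and 1037 CPM but lay only 0.999 and 0.90 above other nuclei on the log2 scale.

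The 20 genes that stood highest over other nuclei were of several kinds. The transcription factor genes Gata5 (36.6 and 24.2 CPM) and Isl1 (21.5 and 30.3 CPM), both known from heart development, were 6.49 and 7.23, and 6.38 and 7.39, above other nuclei on the log2 scale. Chst4, a sulfotransferase gene, led in HF-PBS at 8.56 with 27.8 CPM. Genes best known from neurons were the most abundant of the 20. Rbfox1, a splicing factor, had 3255 and 3117 CPM, with a UMI in 76.7% and 79.5% of nuclei. Il1rapl1, a synaptic receptor, was at 1689 and 1798 CPM, and Nxph1, a ligand of neurexins, at 1283 and 1156 CPM. Slc39a8, a zinc and manganese importer, was at 1020 and 733 CPM. Between the libraries most of the 20 differed by less than 2-fold. Exceptions included Ptprq, a receptor phosphatase (54.9 and 308 CPM, log2 ratio 2.49, 2.13 to 2.86), Fras1, an extracellular matrix protein of basement membranes (265 and 730 CPM, 1.46, 1.29 to 1.64) and Krt14 (54.9 and 19.2 CPM, -1.52, -2.07 to -0.97), with 40.0% of the HF-HHT UMIs of the last in 1 nucleus.

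**Figure D2:**
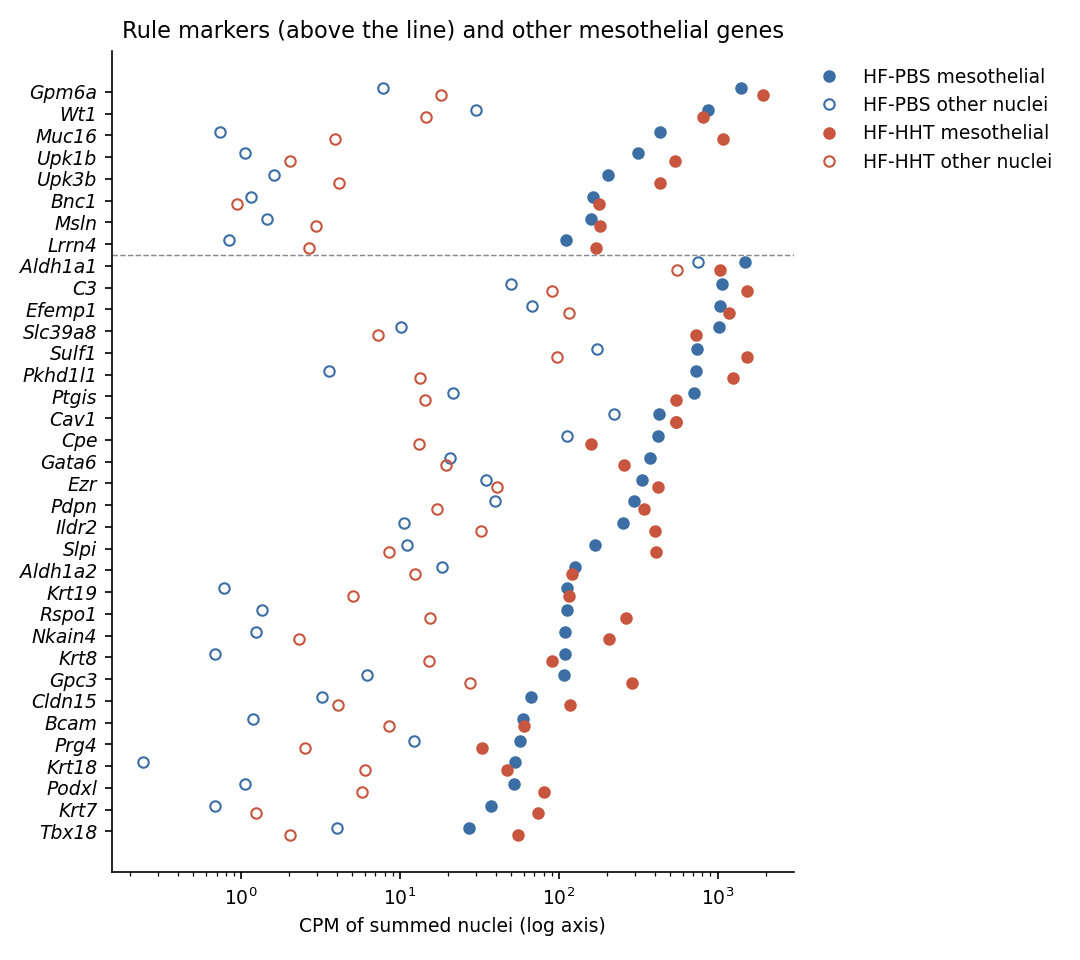
CPM (x axis, log scale) of the 8 rule markers, above the dashed line, and of 27 other mesothelial genes, in summed mesothelial nuclei (filled) and all other kept barcodes (open) of HF-PBS (blue) and HF-HHT (red). Muc16 is at 433 and 1082 CPM in mesothelial nuclei and at 0.739 and 3.88 CPM in the other barcodes.

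Between the libraries, 745 of 9442 measured genes were at least 2-fold higher in HF-HHT mesothelial nuclei (7.89%) and 377 at least 2-fold lower (3.99%). A gene is measured with at least 40 UMIs over both sums. Over all of them the log2 ratio had a median of 0.02. The interval lay above 0 for 724 of the 745 and below 0 for all 377. Lists of genes are described by such counts, and each count is to be read beside the 7.89% and 3.99% of all measured genes. The lists were written with earlier results of these data known.

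**Figure D3:**
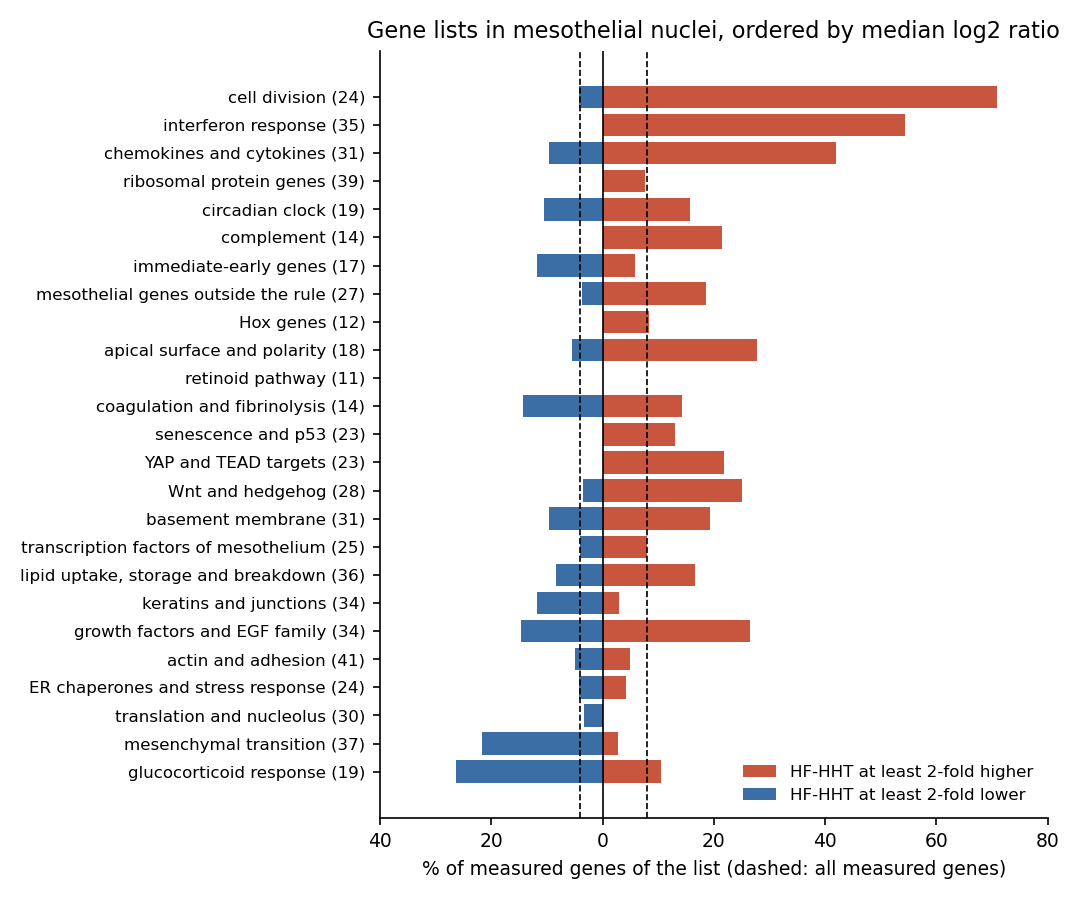
Percent of the measured genes of each list (number in brackets) that were at least 2-fold higher (red, right) or lower (blue, left) in HF-HHT than in HF-PBS mesothelial nuclei, with dashed lines at the 7.89% and 3.99% of all measured genes. Lists are ordered by median log2 ratio, from cell division (1.46) at the top to glucocorticoid response (-0.54) at the bottom.

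More than the background share of genes induced by interferon was higher in HF-HHT mesothelial nuclei. Of 35 measured members, 19 were at least 2-fold higher and 0 lower, and the median log2 ratio was 1.08 (0.98 in the nuclei passing with 7 markers). Gbp2, a guanylate-binding GTPase that acts against intracellular microbes, had 72 UMIs against 990 in HF-HHT (57.3 and 380 CPM, 2.73, 2.38 to 3.096). Irf7, the regulator that amplifies type I interferon, had 6 and 116 UMIs (4.77 and 44.5 CPM, 3.22, 2.06 to 4.70). Irf1, an early target of interferon signals, had 55 and 386 UMIs (1.76, 1.35 to 2.19). All these genes were thus at higher levels in HF-HHT by more than the counting error. Antigen-presentation genes, which interferon also induces, were mixed. Psmb9, an immunoproteasome subunit gene, had 13 and 105 UMIs (1.96, 1.13 to 2.92) and Tap1, a peptide transporter gene, 32 and 142 UMIs (1.10, 0.54 to 1.70). H2-K1 was at 1143 and 895 CPM (-0.35, -0.45 to -0.26) and B2m at 833 and 727 CPM (-0.20, -0.31 to -0.09). For Rsad2 (29.4 and 99.8 CPM, 1.76), 56.9% of the HF-HHT UMIs came from 1 nucleus, and without the top nucleus of each library the log2 ratio was 1.18. Other nuclei were higher in HF-HHT as well, by 3.70 for Gbp2 and 2.23 for Irf1 on the log2 scale, so the difference was not particular to mesothelial nuclei. Weighting every nucleus the same lowered the median of the list to 0.59. The summed share of the list had a median of 0.383% per HF-PBS nucleus against 0.337% per HF-HHT nucleus. Its 90th percentile was 0.726% and 0.991%, so the middle of the range was not higher in HF-HHT and the upper end was.

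The largest of these differences concerned interferon-inducible GTPases, which gather on vacuoles that hold microbes. All 16 genes of this family that were examined, chosen after their values were seen, had higher CPM in HF-HHT, although for Tgtp1, with 1 and 9 UMIs, the interval of the log2 ratio (-0.73 to 7.57) included 0. Gbp5, which drives inflammasome assembly, had 19 and 659 UMIs (15.1 and 253 CPM, 4.06, 3.41 to 4.81), and Iigp1, an immunity-related GTPase, 135 and 2414 UMIs (107 and 926 CPM, 3.11, 2.86 to 3.37). Igtp had 11 and 227 UMIs (8.75 and 87.1 CPM, 3.32, 2.45 to 4.34). Reads of the near-identical pairs Gbp6 and Gbp10, and Tgtp1 and Tgtp2, may have been split or lost between copies, so their single values are uncertain. Summed over the family, mesothelial nuclei had 483 CPM against 2874 CPM for HF-HHT, above the 207 and 1647 CPM of free RNA, and it was 81.4 and 1335 CPM in macrophage barcodes and 170 and 1334 CPM in those of stromal precursors. In HF-PBS and in HF-HHT, mesothelial nuclei thus held more of these transcripts than either of these classes. Lymphatic endothelial barcodes stood nearer, at 397 and 2250 CPM, and blood endothelial barcodes were at 276 and 1356 CPM.

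The difference was unevenly spread over nuclei. The GTPase share of a nucleus had a median of 0.038% for HF-PBS against 0.071% for HF-HHT, while the 90th percentile was 0.103% and 0.695%. A share of at least 0.5% was found in 1 of the 146 nuclei from HF-PBS against 62 of the 370 from HF-HHT (0.68% and 16.8%), and the HF-PBS nucleus carried markers of another class. Those 62 nuclei held 72.9% of the GTPase UMIs of the HF-HHT sum. Of the lymphatic endothelial barcodes of HF-HHT, 14.6% had a share of at least 0.5%, and their median was 0.095%. High shares were thus not particular to mesothelial nuclei. The limit cuts a continuous range, with 15 HF-HHT nuclei between 0.4% and 0.5% and 18 between 0.5% and 0.6%. Of the 62, 50 passed the rule with 7 markers, and 6 (9.68%, against 12.99% of the other 308) carried at 0.15% the markers of another class, counted without the stromal precursor, B cell, dendritic, duct-like and erythroid lists. Chemokine transcripts were concentrated in the same nuclei. Cxcl9, Cxcl10, Ccl2, Ccl5, Ccl7 and Cxcl1 together stood at 2268 CPM in the 62 and at 71.5 CPM in the 308, and the 62 nuclei held 90.3% of their UMIs. The top HF-HHT nucleus of each of these genes held between 13.7% (Cxcl1) and 65.9% (Cxcl9) of its UMIs, so the sums rested on few nuclei.

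**Figure D4:**
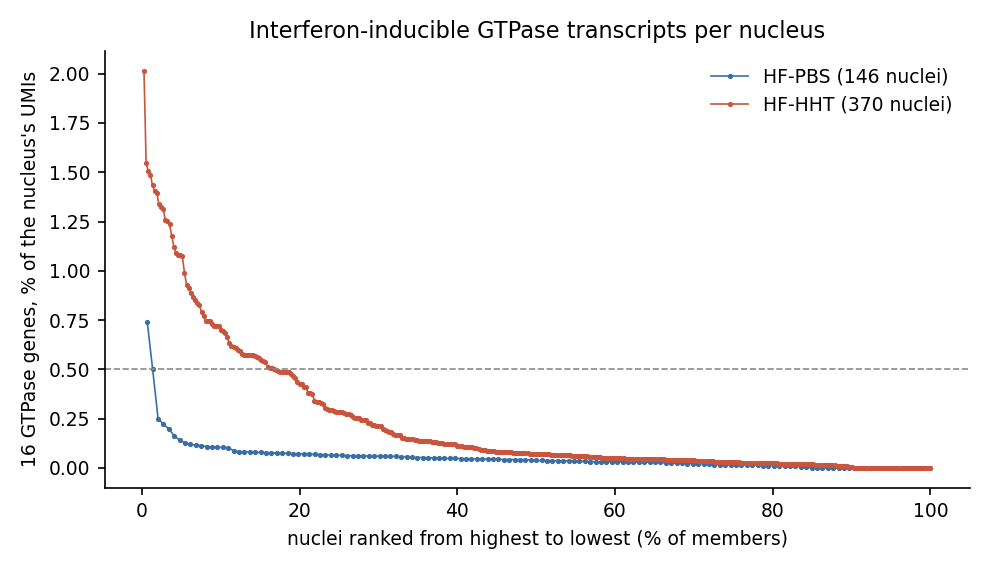
Percent of a nucleus's UMIs that fell on 16 interferon-inducible GTPase genes (y axis) for every mesothelial nucleus, ranked from highest to lowest (x axis, % of nuclei), for the 146 nuclei of HF-PBS (blue) and the 370 of HF-HHT (red), with a dashed line at 0.5%. The HF-HHT curve lies above 0.5% for 62 nuclei and reaches 2.02%, and the HF-PBS curve for 1 nucleus at 0.741%.

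Promoters are shown for Gbp2 and Isg15, members of the interferon list, and for Gbp5, a GTPase gene outside that list. All were at least 2-fold higher and hold the element through which interferon regulatory factors are known to act. Isg15, a ubiquitin-like modifier gene, had 9 and 72 UMIs (1.95, 0.94 to 3.13). They are taken from RefSeq on GRCm38.p6, run 5′ to 3′ on the strand of the gene from 250 bases before to 50 bases after the start, and have in capitals the matches, on either strand, to a pair of GAAA with any 2 bases between them. Gbp2 (chromosome 3, 142620413 to 142620712) and Gbp5 (chromosome 3, 142496684 to 142496983) each hold 1 match, which begins 59 and 165 bases before the start, and Isg15 (chromosome 4, 156200769 to 156201068) holds 3 that overlap.
Gbp2: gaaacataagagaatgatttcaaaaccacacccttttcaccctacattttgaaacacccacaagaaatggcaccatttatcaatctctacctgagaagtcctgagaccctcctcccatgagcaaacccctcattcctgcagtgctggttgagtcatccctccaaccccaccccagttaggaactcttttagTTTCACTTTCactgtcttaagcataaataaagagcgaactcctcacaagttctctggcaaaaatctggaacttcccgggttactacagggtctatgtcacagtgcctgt
Gbp5: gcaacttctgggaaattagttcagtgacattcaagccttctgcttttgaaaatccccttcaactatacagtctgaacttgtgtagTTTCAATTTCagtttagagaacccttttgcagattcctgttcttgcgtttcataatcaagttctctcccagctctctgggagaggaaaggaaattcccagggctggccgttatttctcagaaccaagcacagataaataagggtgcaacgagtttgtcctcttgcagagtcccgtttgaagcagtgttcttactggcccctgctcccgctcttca
Isg15: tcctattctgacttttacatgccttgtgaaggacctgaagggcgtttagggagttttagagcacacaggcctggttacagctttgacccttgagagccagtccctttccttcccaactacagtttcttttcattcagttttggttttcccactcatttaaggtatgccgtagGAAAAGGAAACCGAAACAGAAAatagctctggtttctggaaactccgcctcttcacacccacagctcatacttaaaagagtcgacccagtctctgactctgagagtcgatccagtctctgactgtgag

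That motif was found in 8 of the 16 genes with a promoter record among the 19 that were at least 2-fold higher, in 6 of 13 among the remaining measured members of the list, and in 3.99% of all 27025 genes with a record. The motif thus did not separate the members that differed from those that did not. A match is a match of letters only.

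In the list of chemokines, cytokines, their receptors and related genes, 13 of 31 measured genes were at least 2-fold higher in HF-HHT and 3 lower. Cxcl10, which draws T cells, had 42 and 596 UMIs (33.4 and 229 CPM, 2.78, 2.32 to 3.26). In each library 1 nucleus held 35.7% and 30.2% of them, and the log2 ratio was 2.90 without these nuclei. Cxcl9, its relative, had 3 and 91 UMIs (3.87, 2.28 to 6.18), of which 65.9% in HF-HHT came from 1 nucleus. Ccl2, which draws monocytes, had 69 and 497 UMIs (54.9 and 191 CPM, 1.80, 1.43 to 2.18), 36.8% of the latter in 1 nucleus, and 1.41 remained without the top nuclei. Chemokine counts therefore rested on few nuclei. Cxcl1, a neutrophil chemokine, had 0 and 51 UMIs, at least 3.04 higher on the log2 scale against a floor of 3 counts. Vcam1, an adhesion molecule for leukocytes, had 46 and 429 UMIs in 26 and 46 nuclei (36.6 and 165 CPM, 2.17, 1.73 to 2.64), while its log2 ratio in other nuclei was -1.27. Lcn2, which binds bacterial siderophores, had 3 and 107 UMIs (4.11, 2.52 to 6.41) and 4.87 in other nuclei.

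In the opposite direction, the receptor gene Il1r1 had 1335 UMIs against 652 in HF-HHT (1062 and 250 CPM, -2.09, -2.22 to -1.95), against -0.48 in other nuclei. A UMI of it was present in 113 of the 146 nuclei from HF-PBS against 195 of the 370 from HF-HHT. Il1rl2, the receptor for interleukin-36, had 145 and 41 UMIs (115 and 15.7 CPM, -2.87, -3.41 to -2.36). Both receptors of the interleukin-1 family were thus lower. Il33, an alarmin of that family, had 83 and 263 UMIs (66.0 and 101 CPM, 0.61, 0.25 to 0.99). Its log2 ratio was 0.13 in the nuclei passing without Gpm6a and 0.04 in those with a marker share of at least 0.3%. Cxcl13, a B cell chemokine of fat-associated lymphoid clusters, had only 6 and 14 UMIs.

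Of 24 measured genes of cell division, 17 were at least 2-fold higher in HF-HHT mesothelial nuclei and 1 lower. Top2a, which untangles DNA before mitosis, had 16 and 189 UMIs (12.7 and 72.5 CPM, 2.51, 1.77 to 3.35). Mki67, the proliferation marker, had 23 and 148 UMIs (18.3 and 56.8 CPM, 1.63, 0.99 to 2.34), and Cenpe, a kinetochore motor, 3 and 83 UMIs (3.74, 2.14 to 6.05). Ccnd1, the cyclin of the G1 phase, was the member that was lower (92 and 83 UMIs, -1.20, -1.65 to -0.76). The median of the list was 1.46, and 0.08 in other nuclei.

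These counts came from few nuclei. With at least 5 UMIs over 10 mitotic genes, a set chosen after values were seen, there were 2 of 146 nuclei in HF-PBS (1.37%, 0.17 to 4.86) and 18 of 370 in HF-HHT (4.86%, 2.91 to 7.58), and the intervals overlapped. The 18 nuclei held 90.5% of the 1025 UMIs of the 10 genes in HF-HHT. Of them, 15 passed with 7 markers and 2 carried markers of another class. Among all other barcodes the shares were 4.45% and 6.34%. Thinned to 1000 UMIs per nucleus only 3 members were measured, and their median was -0.41.

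Of 27 measured mesothelial identity genes outside the rule, 5 were at least 2-fold higher and 1 lower, with a median log2 ratio of 0.33. Gpc3, a glypican that binds Wnt and hedgehog ligands, had 135 and 752 UMIs (107 and 289 CPM, 1.43, 1.16 to 1.70), and Rspo1, which amplifies Wnt signals, 141 and 689 UMIs (112 and 264 CPM, 1.24, 0.97 to 1.51). Sulf1, which trims sulfate from heparan chains, had 924 and 3998 UMIs (735 and 1534 CPM, 1.06, 0.96 to 1.17), whereas it was -0.83 in other nuclei. Slpi, a protease inhibitor of mucosal surfaces, was at 169 and 409 CPM (1.28, 1.06 to 1.497), but 29.5% of its HF-HHT UMIs lay in 1 nucleus and its log2 ratio was 0.90 without the top nuclei, 0.20 with every nucleus weighted the same, 0.38 with upper limits on depth and 0.47 after thinning. Cpe, a carboxypeptidase that processes peptide hormones, was lower (423 and 158 CPM, -1.42, -1.61 to -1.23). Has1, which makes hyaluronan at the surface, had 93 and 398 UMIs (74.0 and 153 CPM, 1.05, 0.72 to 1.39), while its receptor gene Cd44 was at 545 and 223 CPM (-1.29, -1.45 to -1.13). The gene of the ligand-making enzyme and that of the receptor thus lay in opposite directions.

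Of 25 measured transcription factors of the layer, 2 were at least 2-fold higher and 1 lower, shares close to the 7.89% and 3.99% of all measured genes. Tbx18, an epicardial and mesothelial factor, had 34 and 145 UMIs (1.04, 0.49 to 1.62) and Gata4 10 and 66 UMIs (1.67, 0.70 to 2.80). The homeobox gene Meis1 was at 1399 and 703 CPM (-0.99, -1.09 to -0.90), just short of the limit, and Sox6 at 824 and 1406 CPM (0.77, 0.67 to 0.87). Hox genes showed 1 of 12 higher, and genes of the retinoid pathway 0 of 11 in either direction.

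Of 34 measured genes of keratins and junctions, 4 were at least 2-fold lower and 1 higher. Cdh2, the N-cadherin by which mesothelial cells adhere, had 367 UMIs against 181 in HF-HHT (292 and 69.5 CPM, -2.07, -2.34 to -1.81). Cdh3, the P-cadherin, had 359 and 339 UMIs (286 and 130 CPM, -1.13, -1.35 to -0.92), although other nuclei were at 0.98. Cgn, which encodes the tight junction protein cingulin, was at 47.7 and 99.0 CPM (1.05, 0.64 to 1.48). Cdh11, the most abundant cadherin of the list, was at 896 and 777 CPM (-0.20, -0.31 to -0.10).

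In a list for the mesenchymal transition, 8 of 37 measured members were at least 2-fold lower and 1 higher, with a median of -0.30. Fn1, fibronectin, had 1020 and 345 UMIs (811 and 132 CPM, -2.62, -2.80 to -2.44). Among signal genes, Smad3, the transducer of transforming growth factor beta, was at 530 and 152 CPM (-1.81, -1.99 to -1.62), Tgfbr1, its receptor, at 264 and 69.1 CPM (-1.93, -2.20 to -1.67) and the ligand gene Tgfb2 at 116 and 39.1 CPM (-1.57, -1.95 to -1.19). Smad3, Tgfbr1 and Tgfb2 were thus each at lower levels in HF-HHT. Other members of that pathway in the list are not reported here, so no direction is read for the pathway. Postn, a matrix protein, had 33 and 7 UMIs (-3.29, -4.71 to -2.09). The fibrillar collagen genes Col3a1 (848 and 1167 CPM, 0.46, 0.36 to 0.56) and Col1a2 (633 and 447 CPM, -0.50, -0.63 to -0.37) differed by less than 2-fold. In other nuclei the median of the list was -0.75.

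In the basement membrane list, 6 of 31 genes were higher and 3 lower. Hmcn1, hemicentin, was lower at 621 and 112 CPM (-2.48, -2.67 to -2.28), while other nuclei were at 0.19. Fras1, given above, Ntn4, a netrin bound to laminin (63 and 342 UMIs, 1.39, 0.998 to 1.80), and Lama3, a laminin chain (20 and 99 UMIs, 1.26, 0.55 to 2.03), were higher. In HF-HHT, a receptor gene for fibronectin, Itga5, was also lower (115 and 28.8 CPM, -2.002, -2.42 to -1.59), but -0.998 at a marker share of at least 0.3% and -0.88 after thinning. Myh10, a nonmuscle myosin gene, was higher (27.8 and 107 CPM, 1.94, 1.43 to 2.49).

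Ligands and receptors of Wnt signaling were higher for 7 of 28 measured genes of the Wnt and hedgehog list and lower for 1. The ligand gene Wnt9a had 29 and 323 UMIs (23.1 and 124 CPM, 2.43, 1.88 to 3.03), found in 21 of 146 and 163 of 370 nuclei. The receptor gene Fzd2 had 8 and 95 UMIs (2.52, 1.48 to 3.77) and Fzd4 14 and 129 UMIs (2.15, 1.35 to 3.06), whereas Fzd1 had 181 and 119 UMIs (-1.66, -2.003 to -1.31). The receptors thus did not move in 1 direction. Ror1, a Wnt5a receptor, was the most abundant at 2417 and 1343 CPM (-0.85, -0.92 to -0.78).

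Growth factor genes included 9 of 34 higher and 5 lower. Bmp4 had 49 and 313 UMIs (38.97 and 120 CPM, 1.62, 1.19 to 2.09) and Fgf9, a mesothelial ligand for the underlying mesenchyme in development, 69 and 397 UMIs (54.9 and 152 CPM, 1.47, 1.10 to 1.86). Fgf18 had 5 and 87 UMIs (3.07, 1.79 to 4.73) against -0.32 in other nuclei. Vegfa, the angiogenic factor, had 17 and 200 UMIs (13.5 and 76.8 CPM, 2.50, 1.79 to 3.31), but free RNA held more of it, 82.0 and 429 CPM. The same holds for Nrg4, a neuregulin of fat cells, with 1 and 134 UMIs beside 17.0 and 281 CPM in free RNA. Egfr, the receptor for several ligands of the list, was at 1237 and 657 CPM (-0.91, -1.01 to -0.81), and Errfi1, its feedback inhibitor, at 234 and 52.96 CPM (-2.14, -2.44 to -1.85).

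Targets of the mechanosensitive factors YAP and TEAD were higher for 5 of 23 measured genes and lower for 0. Amotl2, an angiomotin that holds YAP at junctions, had 70 and 671 UMIs (55.7 and 257 CPM, 2.21, 1.85 to 2.59). Ccn1, a matricellular protein, had 20 and 208 UMIs (15.9 and 79.8 CPM, 2.33, 1.66 to 3.07), and Ajuba, a LIM protein that restrains the LATS kinases, 6 and 68 UMIs (2.45, 1.25 to 3.95). Ccn2 had 43 and 190 UMIs (1.09, 0.61 to 1.61), against -2.08 in other nuclei. The factor gene Tead1 was at 1334 and 850 CPM (-0.65, -0.74 to -0.56), and the median of the list was 0.16, so that the difference concerned some targets and not the list. For Ccn1 the free RNA, at 73.1 and 88.4 CPM, held far more than the nuclei in HF-PBS and slightly more in HF-HHT.

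The promoters of the leading members are shown for the TEAD element. Matches to GGAATG on either strand are in capitals, and the source, build and window are those given above. Ccn1 (chromosome 3, 145649936 to 145650235) holds 1 match that begins 103 bases before the start, Amotl2 (chromosome 9, 102717554 to 102717853) 1 at 65 bases, and Ajuba (chromosome 14, 54577612 to 54577911) 2, at 186 and 164 bases.
Ccn1: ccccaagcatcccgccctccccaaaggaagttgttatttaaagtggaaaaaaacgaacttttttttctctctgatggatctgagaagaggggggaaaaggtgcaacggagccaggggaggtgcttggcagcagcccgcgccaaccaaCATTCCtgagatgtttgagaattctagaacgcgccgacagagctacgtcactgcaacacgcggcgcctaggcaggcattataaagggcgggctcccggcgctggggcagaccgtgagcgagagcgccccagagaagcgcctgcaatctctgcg
Amotl2: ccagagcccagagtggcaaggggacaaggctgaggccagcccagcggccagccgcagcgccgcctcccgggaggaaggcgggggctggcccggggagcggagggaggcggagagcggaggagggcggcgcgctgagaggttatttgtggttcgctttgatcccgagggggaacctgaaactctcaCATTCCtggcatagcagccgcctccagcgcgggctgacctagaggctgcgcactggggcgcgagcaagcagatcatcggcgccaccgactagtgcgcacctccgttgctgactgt
Ajuba: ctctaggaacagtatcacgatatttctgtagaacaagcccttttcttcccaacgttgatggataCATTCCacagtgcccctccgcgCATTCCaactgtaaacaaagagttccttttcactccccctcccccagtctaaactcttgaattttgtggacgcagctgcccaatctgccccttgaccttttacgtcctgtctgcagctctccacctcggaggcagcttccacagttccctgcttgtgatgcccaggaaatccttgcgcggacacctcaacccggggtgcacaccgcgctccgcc

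GGAATG was found in 3 of the 4 genes with a record among the 5 that were higher, in 7 of 13 among the other measured members, and in 16.6% of all genes with a record.

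Of 19 measured genes induced by glucocorticoids, 5 were at least 2-fold lower in HF-HHT mesothelial nuclei and 2 higher, and the median was -0.54. Zbtb16, a zinc finger gene that is strongly induced by the hormone, had 1983 UMIs against 1314 in HF-HHT (1577 and 504 CPM, -1.65, -1.75 to -1.54). Fkbp5, the co-chaperone that limits the receptor, had 1103 and 791 UMIs (877 and 304 CPM, -1.53, -1.66 to -1.40), found in 135 of 146 and 248 of 370 nuclei. Klf9 was at 351 and 162 CPM (-1.12, -1.31 to -0.92) and the kinase gene Sgk1 at 74.0 and 24.9 CPM (-1.57, -2.05 to -1.10). The receptor gene Nr3c1 itself was at 169 and 188 CPM (0.16, -0.08 to 0.40), an interval that includes 0. The summed share of the list had a median of 0.444% per HF-PBS nucleus against 0.230% per HF-HHT nucleus, and 57 of 146 and 8 of 370 nuclei had a share of 0.5% or more. The difference was thus seen in the middle of the range as well as at its upper end. Other nuclei had a median of -0.27 for the list, with Fkbp5 at -1.86 and Zbtb16 at -0.24. The 2 members that were higher were Lcn2 and Cdkn1a (12 and 59 UMIs, 1.25, 0.34 to 2.28). The cause of the differences in the list was not tested.

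In the circadian clock list, 3 of 19 measured genes were higher and 2 lower. The activator gene Arntl had 112 and 61 UMIs (89.1 and 23.4 CPM, -1.93, -2.40 to -1.47) and its relative Npas2 41 and 23 UMIs (-1.89, -2.69 to -1.11). Dbp, an output gene, had 4 and 46 UMIs (2.47, 1.02 to 4.41) and Per3, a repressor, 23 and 120 UMIs (1.33, 0.68 to 2.04). The activator gene Clock (170 and 332 UMIs, -0.09, -0.36 to 0.19) and the output gene Hlf (113 and 197 UMIs, -0.25, -0.59 to 0.10) had intervals that included 0. In other nuclei the log2 ratios were -1.50 for Arntl, -1.43 for Npas2, 2.35 for Dbp and 2.03 for Per3. The hour of tissue collection was not given in the sources used here. Of the immediate-early genes, 1 of 17 was higher and 2 were lower, Egr1 at 176 and 62.9 CPM (-1.48, -1.78 to -1.18) and Nr4a1 at 52.5 and 23.8 CPM (-1.14, -1.67 to -0.62). Among all measured genes the shares were 7.89% higher and 3.99% lower.

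Complement genes were higher for 3 of 14 and lower for 0. C3, the central component and an abundant product of mesothelium, was at 1062 and 1522 CPM (0.52, 0.43 to 0.61). Serping1, the C1 inhibitor, had 154 and 741 UMIs (122 and 284 CPM, 1.22, 0.96 to 1.48). In coagulation and fibrinolysis, 2 of 14 were higher and 2 lower. Among all measured genes 7.89% were higher and 3.99% lower, so counts in lists of 14 genes are small. Plau, a plasminogen activator, had 25 and 23 UMIs (-1.17, -2.05 to -0.30).

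Hspa5, the endoplasmic reticulum chaperone that the study examined as a binding partner of HHT, did not differ in mesothelial nuclei beyond counting error under the stated rule. It had 500 and 1021 UMIs (398 and 392 CPM, -0.02, -0.18 to 0.14). The value depended on the setting. It was -0.35 with every nucleus weighted the same and -0.36 after thinning. Without nuclei that carried other markers at 0.3% it was -0.23, and at a marker share of at least 0.3% it was 0.16. Of 24 measured genes for chaperones and the stress of the endoplasmic reticulum, 1 was higher and 1 lower. Over all measured genes 7.89% were at least 2-fold higher and 3.99% lower. The lower one was Ern1, a sensor of unfolded proteins (240 and 104 CPM, -1.21, -1.45 to -0.97). Ribosomal protein genes had a median of 0.56, with 3 of 39 at least 2-fold higher, close to the share of all measured genes, and 0 lower. Their median was 0.91 in other nuclei. They summed to 4524 and 6036 CPM in mesothelial nuclei and to 3978 and 8747 CPM in free RNA. Genes of translation and the nucleolus had a median of -0.24, with 0 of 30 higher and 1 lower, Nop56 (87 and 74 UMIs, -1.28, -1.75 to -0.82). In the list for senescence and p53, 3 of 23 were higher and 0 lower. They included Cdkn1a and Ccng1 (16 and 79 UMIs, 1.25, 0.46 to 2.13), whereas Trp53 had 49 and 78 UMIs (-0.38, -0.91 to 0.17) and Cdkn2a only 6 and 9.

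Lipid genes were higher for 6 of 36 and lower for 3, with markers of fat cells moving alongside. Fabp4, a fatty acid carrier, was at 89.1 and 272 CPM (1.61, 1.32 to 1.91) and Acsl1, which activates fatty acids, at 33.4 and 157 CPM (2.24, 1.78 to 2.73). The value for Acsl1 was 0.77 with upper limits on depth, 0.87 without nuclei that carried other markers at 0.3% and 1.07 without doublets. The 9 adipocyte markers summed to 82.7 and 530 CPM in mesothelial nuclei and to 612 and 3099 CPM in free RNA, and 1 of them was at 0 in HF-PBS. Their part in the lipid genes was not tested, but Fabp4 turned to -4.55 once free RNA was subtracted. Hemoglobin genes and other erythroid markers likewise summed to 30.2 and 842 CPM in mesothelial nuclei and 30.4 and 1776 CPM in free RNA.

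Among all other genes, those with the largest differences were read by the stated rule, which asks for at least 50 UMIs in the higher library and at least 2 times the CPM of free RNA there. On the side of HF-HHT, after Gbp5, were Pglyrp2, which cleaves bacterial cell wall (3 and 93 UMIs, 3.90, 2.31 to 6.21), Pdlim3, an actin-binding LIM protein of muscle (6 and 166 UMIs, 3.74, 2.59 to 5.21), and the subunit genes Gabra4 (5 and 128 UMIs, 3.63, 2.37 to 5.27) and Gabrb1 (26 and 471 UMIs, 3.13, 2.56 to 3.76) of receptors for the transmitter GABA. Gabrb1 had a UMI in 8.22% of the nuclei from HF-PBS against 32.4% from HF-HHT, and Gabra4 in 2.05% and 17.6%, so that these genes were spread over many HF-HHT nuclei. Pglyrp2 was found in 23 HF-HHT nuclei, 1 of which held 25.8% of its UMIs. Ctnnd2, a catenin (4 and 85 UMIs, 3.36), Ptprz1, a receptor phosphatase (5 and 98 UMIs, 3.24), Kank4 (3 and 57 UMIs, 3.20), Iigp1 and Fgf18 completed the 10. The low HF-PBS counts leave wide intervals, from 1.58 to 5.52 for Kank4.

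On the side of HF-PBS stood Gatm, which makes the precursor of creatine (91 and 6 UMIs, 72.4 and 2.30 CPM, -4.97, -6.46 to -3.80), and Col24a1, a minor fibrillar collagen (747 and 59 UMIs, 594 and 22.6 CPM, -4.71, -5.12 to -4.33). Col24a1 was found in 26 of the 146 nuclei from HF-PBS against 15 of the 370 from HF-HHT, so a minority of nuclei carried it in both. Its ratio in other nuclei was -5.05. Sez6l, a membrane protein best known from neurons, had 287 and 80 UMIs (-2.89, -3.27 to -2.53) in 68 of 146 and 48 of 370 nuclei, and its ratio in other nuclei was -0.32. Gpr176, an orphan receptor (88 and 8 UMIs, -4.51, -5.77 to -3.47), Adcyap1r1, the receptor for the peptide PACAP (87 and 12 UMIs, -3.91, -4.92 to -3.03), and Samd5 (129 and 19 UMIs, -3.81, -4.59 to -3.11) were lower as well. Trabd2b, a protease that acts on Wnt ligands, had 177 and 46 UMIs (-2.995, -3.50 to -2.52), with 42.9% of the HF-PBS UMIs in 1 nucleus and -2.35 without the top nuclei. For Nkain3 (62 and 8 UMIs, -4.01) the top nucleus held 67.7% of the HF-PBS UMIs, and -2.80 remained without the top nuclei. Prune2 (396 and 130 UMIs, -2.66, -2.96 to -2.37) and Il1rl2 completed the 10. At least 3 UMIs of any of these 10 genes were found in 67 of 146 HF-PBS nuclei and 32 of 370 HF-HHT nuclei, and of 3 or more of them together in 19 and 0 nuclei, where 0 of 370 allows a share of up to 0.811%. These 10 were chosen on this contrast, so the counts describe them only.

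**Figure D5:**
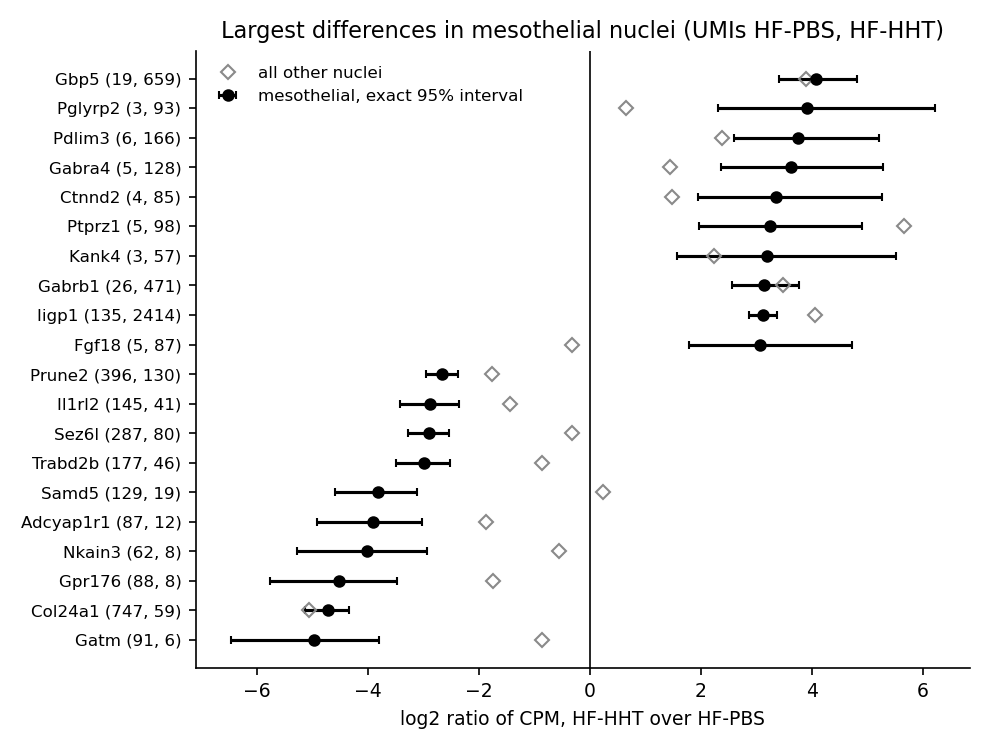
Log2 ratio of CPM, HF-HHT over HF-PBS (x axis), of the 10 highest and 10 lowest genes by the stated rule in mesothelial nuclei (black, exact 95% interval) and in all other kept barcodes (grey diamonds), with the UMIs of both libraries in brackets. Gbp5 is at 4.06 in mesothelial and 3.90 in other nuclei, whereas Sez6l is at -2.89 and -0.32.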

How the data were processed

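The deposited files were raw UMI count matrices of 1 library per group, made by the authors with Cell Ranger 5.0.0 (submitters' processing notes) on mm10. The headers of the files and the study's reporting form name other versions of that tool, so the version is uncertain. How intronic reads were treated was not stated in the sources used here. Barcodes were kept and called mesothelial as stated in the report, without removing doublets, which were scored with Scrublet in scanpy 1.11.5 and removed in an alternative setting. Other kept barcodes were assigned to comparison classes by marker lists. Counts were summed over nuclei per library and scaled to CPM, and log2 ratios of CPM were given exact conditional binomial intervals at 95% (scipy 1.17.1, numpy 2.4.6, pandas 2.3.3, Python 3.11.15), after the procedure was tested on simulated counts. The intervals cover counting error only, since 1 library per group gives no replicate error and no test between groups.

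The members, the 27 gene lists and the settings were chosen with earlier results of these data known. Genes were named by a rule: the genes of the selection, the 10 largest and 10 smallest log2 ratios (50 or more UMIs in the library with more, 3 or more in the one with less, and 2 or more times the CPM of free RNA), the 2 highest and 2 lowest of each list, the 20 genes highest over other nuclei, and Hspa5, Cxcl13 and Il33. Further list members were named for their level or role after their values were seen. Predicted genes were left out, and some genes that the rule names are not reported here. Alternatives covered the scaling (TMM of edgeR 4.0.16 and median of ratios), the minimum count, the fold limit, equal weight per nucleus, depth, doublets, the selection rule, free RNA and thinning to 1000 UMIs per nucleus. Promoters came from RefSeq on GRCm38.p6, and gene coordinates from the annotation of that build.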

Additional observations from a re-analysis of the deposited data

How the results depend on the processing

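No paired analysis was possible because each group had 1 library. The log2 ratio of the share of mesothelial nuclei was positive under every setting run, at 1.996 with a marker share of at least 0.3%, 1.77 without Gpm6a and 2.01 with barcodes thinned to 1000 UMIs. The number of genes at least 2-fold higher was 1240 with a minimum of 20 UMIs, 346 with 100 UMIs, 1995 with 1 UMI, 1668 at a 1.5-fold limit and 168 after thinning. The number lower was 225 with 100 UMIs, 4039 with 1 UMI, 1092 at the 1.5-fold limit and 130 after thinning. Higher genes were 66.4% of those past the limit with the minimum of 40 UMIs, 59.9% with free RNA subtracted and 56.4% after thinning. The other settings with a minimum lay between 59.0% and 69.6%. Without a minimum the value was 33.1%. There the floor of 3 counts for a library without UMIs makes genes with very few UMIs, all in HF-HHT, count as lower. The counts, the percentage and the list medians at a minimum of 1 UMI therefore show no change of balance. TMM scaling gave 721 higher and 406 lower, and median of ratios 726 and 399. Genes above other nuclei numbered 1197 at 2-fold and 239 at 8-fold. Among calls and list medians, the direction turned for Fabp4 (-4.55 with free RNA subtracted). After thinning it turned for Cd59a (-0.61, 8 UMIs) and the medians of chemokines (-0.14) and cell division (-0.41). Aspm (-0.12, 7 UMIs) and Ddit3 (-0.34, 6 UMIs) also changed sign after thinning. Fgf12 changed sign without nuclei that carried other markers at 0.3% (0.87, 1 UMI) and at 0.15% (0.10, 3 UMIs). The 0.15% setting was chosen after seeing the data. A library without UMIs of a gene is set at the floor of 3 counts. The signs of Aspm and of Fgf12 at 0.3% came from this floor. The counts of Aspm, Ddit3 and Fgf12 are too small to give a direction. Medians nearer to 0 also changed sign. Thinning gave -0.38 for Wnt and hedgehog, -0.29 for transcription factors, -0.14 for immediate-early genes, -0.07 for complement and for coagulation and 0.08 for translation. A minimum of 1 UMI gave -0.31 for the retinoid pathway, -0.29 for immediate-early genes and -0.15 for transcription factors, the minimum of 20 gave -0.11 for immediate-early genes and that of 100 gave -0.14 for transcription factors. Other medians that crossed 0 stayed within 0.11 of it. Genes of the report that no longer reached 2-fold after thinning included Gata4 (0.77), Nop56 (-0.71), Plau (-0.76) and Trabd2b (-0.88). Nkain3 (-0.99) and Nr4a1 (-0.79) did not reach it at a marker share of 0.3%. For further genes all thinned UMIs lay in HF-HHT, and the floor of 3 counts for HF-PBS set the value. Among them were Ajuba, Nrg4 and Dbp (0.07 each, 8 UMIs), Pglyrp2 (0.24, 9 UMIs) and Lcn2 (0.39, 10 UMIs). The same held for Cxcl9 and Ctnnd2 (0.53 each, 11 UMIs) and for Kank4 and Ptprz1 (0.77 each, 13 UMIs). Their thinned values do not show that the difference was lost. Ccnd1 was at -0.50 with upper limits on depth and Tbx18 at 0.92 without Gpm6a. Thinning left 2904 measured genes. The other causes were not tested. The single library per group and the number of HF-PBS nuclei (146) limit what these values can show.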
